A study of Homo sapiens with 12 samples.

Results

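A549 cells in which PA200 had been knocked out were compared with wild-type A549 cells across all genes. The comparison used 6 of the 12 poly-A RNA libraries of the series, 3 labelled PA200 KO and 3 labelled WT, chosen by cell line and genotype as the labels give them. A549 is a human lung adenocarcinoma line with epithelial features, and both groups were untreated apart from the CRISPR/Cas9 edit of the knockout. The other 6 libraries come from NCI-H1299 (H1299), a second human lung cancer line, with 3 PA200 KO and 3 WT libraries, and they are used only where the A549 values are set beside them. The labels give no guide sequence and no edited exon, and leave it unsaid whether a group's libraries are separate clones or cultures of 1 line of cells. The p-values therefore measure the spread between these libraries, which may be technical. Of 59050 gene symbols in the table, 20093 had enough counts to be tested.

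PA200 is encoded by PSME4 and belongs to the proteasome activators, proteins that cap the 20S core particle and open its gate. It is found mainly in the nucleus and is known for its bromodomain-like regions and for the turnover of acetylated core histones, described in male germ cells and during DNA repair. Because histone turnover bears on which genes are transcribed, the silent and the active ends of the transcriptome are described separately here.

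Every knockout library was deeper than every wild-type library, with 30645131, 30920272 and 40983933 counts in knockout replicates 1, 2 and 3, against 16599401, 21112339 and 18475211 in wild-type replicates 1, 2 and 3. On the first principal component, with 48.9% of the variance, the knockout libraries lay between 33.2 and 44.4, against -70.1, -40.0 and -4.4 for the wild-type libraries, so wild-type replicate 3 lay nearest to the knockout. The line's identity was checked with markers. CDKN2A and CDKN2B, a tumour suppressor locus known to be deleted in A549, had 0 counts in all 6 libraries. The 6 epithelial markers summed to 6004.2 to 6527.1 CPM (counts scaled to the library's normalised total) in knockout and 4046.9 to 6590.5 CPM in wild type. Within this sum EPCAM, CDH1 and KRT19 were higher and KRT7 lower in every knockout library than in every wild-type library, while KRT8 and KRT18 overlapped. The 7 markers that a KEAP1 mutation keeps high in A549 summed to 18177.3 to 20124.1 CPM in knockout and 19343.9 to 20493.0 CPM in wild type. ALDH1A1, the largest part, was higher in knockout, at 10444.9 to 11480.0 CPM against 8702.8 to 9762.7 CPM. AKR1B10, AKR1C1 and TXNRD1 were lower in every knockout library, and NQO1, GCLM and ALDH3A1 overlapped. Groups did not overlap in 25.3% of all tested genes. Of the epithelial and KEAP1 markers only KRT19 was called in the test used below. Of 5 leukocyte markers 4 were under 1 CPM in every library, as were 7 of 8 fibroblast and endothelial markers.

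PSME4 itself lies on the short arm of chromosome 2 (GRCh38, chr2:53864067-53970840, minus strand). It was at 22.8, 20.3 and 16.5 CPM in the knockout libraries, against 137.6, 192.0 and 190.3 CPM in the wild-type libraries. The groups did not overlap, and the log2 fold change, knockout over wild type, was -3.13, with SE 0.19 and an adjusted p of 0.00109 in edgeR's quasi-likelihood test. It was one of 7 genes whose call held in each of the 6 fits that left out 1 library. The others were PRICKLE1, EHF, SLCO2B1, F2RL2, TESC and the unnamed transcript AC079601.1. As AC079601.1 lies within the span of PRICKLE1, the pair may share reads and may stand for 1 change.

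Across the transcriptome, 430 of 20093 tested genes (2.14%) passed a Benjamini-Hochberg adjusted p of 0.05 in edgeR's quasi-likelihood test. Of these, 199 rose (0.99% of tested genes) and 231 fell (1.15%) in the knockout. All 430 had knockout libraries that did not overlap the wild-type libraries, as had 25.3% of all tested genes. The counts rested on single libraries: leaving out wild-type replicate 1, 2 or 3 gave 211, 10 or 1016 calls, and leaving out knockout replicate 1, 2 or 3 gave 139, 68 or 59. Of the 430 called genes, 190 kept the call in 1 of the 6 fits without 1 library, and 47 in none. Of the genes named below, AKR1C2, ANPEP, ADAM17, COL6A3, TACR1, ITGA9 and IFNE were among the 47. CD24, CNTN1, MALAT1, TNC, EPHA4 and C4BPA were among the 190. So were many others named below, such as TGFA, GSR, PTPRE, NID2, CSF1, LIPG, GLRB and TFPI. A gene not listed here is therefore not to be read as stable. At an adjusted p of 0.01, 8 genes passed. Calls named below hold with all 6 libraries. No gene of the 188 followed in detail turned its direction in a fit without 1 library that tested it. Since the groups did not overlap in any called gene, this was largely fixed in advance and is no sign of stability. In the 3 fits without a knockout replicate 187 of the 188 were tested.

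Chromosome 2 carried 118 of the 231 lower calls. Of 1285 tested genes on it, 118 fell (9.18%) and 16 rose, 87.0% had a log2 fold change below 0, and the median was -0.46. On the rest of the genome 183 genes rose (0.973% of 18808) and 113 fell (0.601%). The 2 arms of chromosome 2 were shifted to a similar degree: the median deviation of expressed genes was lower in knockout by 0.47 on the log2 scale on the short arm (SE 0.0922, adjusted p = 0.0463, limma over arm medians) and by 0.465 on the long arm (SE 0.0491, adjusted p = 0.00336). In H1299 knockout the same arms stood at +0.0538 and +0.0395 and were not called (adjusted p = 0.228 and 0.288). Other arms were called there by the same test. The short and long arms of chromosome 4 stood at +0.275 and +0.409 (adjusted p = 0.000236 and 0.00105). The long arms of chromosomes 8 and 1 stood at +0.258 and -0.293 (adjusted p = 0.00264 and 0.00718). H1299 fold changes of single genes given below were not corrected for these shifts. When every A549 library was centred within chromosome arms before the fit, 146 genes rose (0.727% of tested genes) and 88 fell (0.438%), and chromosome 2 held 6 of the lower calls. Of the 188 genes followed in detail 70 missed the threshold after centring, 32 of them on chromosome 2. For the 38 on other chromosomes the centred log2 fold change was 70.4% to 115% of the uncentred one, with a median of 96.6%. For the 32 on chromosome 2 it was 17.5% to 88.1%, with a median of 46.6%.

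The short arm was not uniform among the knockout libraries. Telomeric of PSME4, the 233 expressed genes had a median log2 deviation from the 6-library mean of -0.07, -0.12 and -0.65 in knockout replicates 1, 2 and 3, against 0.23, 0.29 and 0.32 in wild-type replicates 1, 2 and 3. Knockout replicate 3 was thus far below the other knockout libraries over this stretch. Centromeric of PSME4, on the same arm, the 198 expressed genes stood at -0.15, -0.18 and -0.19 in the knockout libraries, against 0.15, 0.15 and 0.20 in wild type. On the long arm, 609 genes stood at -0.20, -0.26 and -0.22 in knockout and 0.12, 0.24 and 0.28 in wild type. Set against the mean of the other knockout libraries, knockout replicate 3 was lower at 225 of the 233 telomeric genes, with a median difference of -0.56, and at 98 of the 198 centromeric genes, with a median difference of 0.00.

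The step lay at PSME4. The 10 nearest expressed genes on its telomeric side, from 0.05 to 6.48 Mb away, differed in knockout replicate 3 from the mean of the other knockout libraries by -0.77 to 0.05, with a median of -0.58. The 10 nearest on its centromeric side, from 0.49 to 1.55 Mb away, differed by -0.25 to 0.22, with a median of -0.05. ERLEC1, an endoplasmic reticulum lectin 0.05 Mb on the telomeric side, was at -0.45, and SPTBN1, a spectrin 0.49 Mb on the other side, was at 0.18. In the H1299 libraries the genes telomeric of PSME4 stood between -0.04 and 0.04 in every library, with no such step. These positions were looked at after the arm medians had been seen, and no test was run on them. Of 288 genes tested telomeric of PSME4, 21 fell (7.29%) and their median log2 fold change was -0.55. Of 237 on the centromeric part of the arm, 13 fell (5.49%) with a median of -0.35, and of 759 on the long arm, 83 fell (10.9%) with a median of -0.45.

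**Figure D1:**
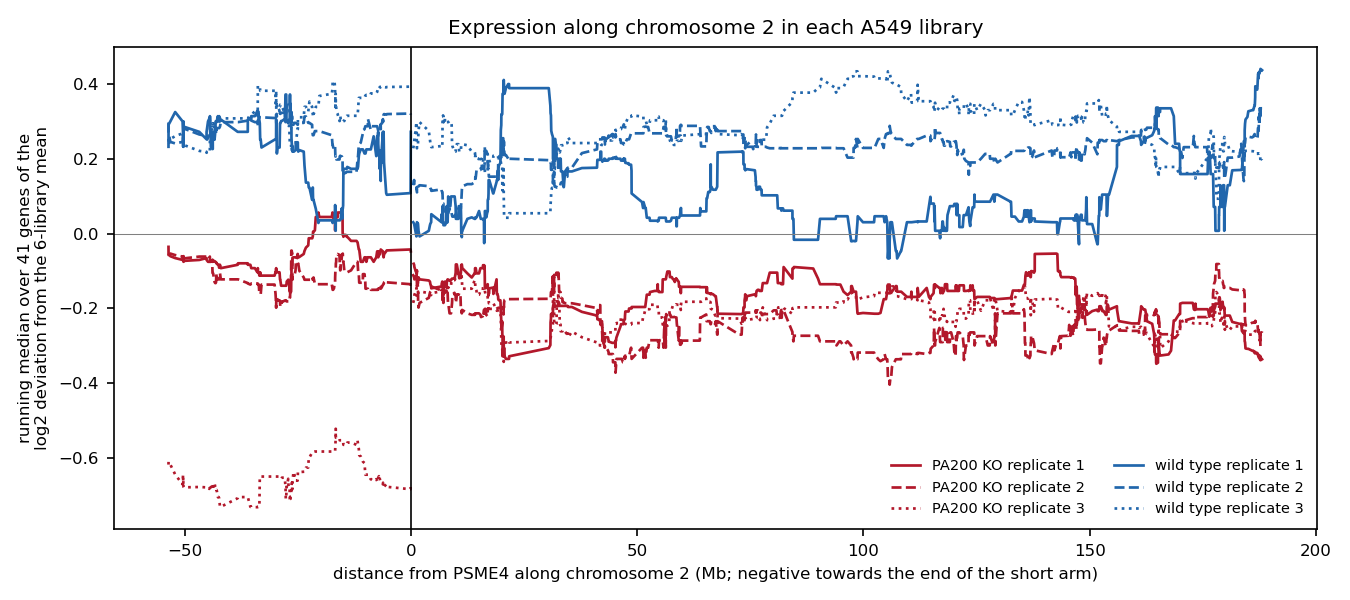
Running median over 41 expressed genes of each library's log2 deviation from the 6-library mean (vertical axis) against distance from PSME4 in Mb (horizontal axis), for the 3 PA200 KO (red) and 3 wild-type (blue) A549 libraries. KO libraries lie below wild type along most of the chromosome, and KO replicate 3 is set apart on the telomeric side of PSME4, where its median is -0.65.

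Among whole autosomes, the wild-type libraries split among themselves most widely on chromosomes 8 and 15. On chromosome 8 the median deviation of 548 expressed genes was -0.09, -0.16 and -0.11 in the knockout libraries, against 0.23, 0.25 and -0.13 in wild-type replicates 1, 2 and 3. On chromosome 15, over 588 genes, it was 0.11, 0.10 and 0.11 in knockout and -0.23, -0.20 and 0.12 in wild type. Wild-type replicate 3 therefore matched the knockout libraries on both chromosomes and the other wild-type libraries on neither. Chromosome 8 held 6 higher and 12 lower calls among 693 tested genes, with a median log2 fold change of -0.24, and chromosome 15 held 10 higher and 2 lower among 755, with a median of 0.17. With chromosomes 2, 8 and 15 left out of the count, 167 higher and 99 lower genes were called. Splits were also seen elsewhere. On chromosome 4 the median was 0.08, 0.01 and 0.09 in knockout, against -0.19, -0.07 and 0.03 in wild-type replicates 1, 2 and 3. That chromosome held 19 higher and 2 lower calls among 674 tested genes. On the short arm of chromosome 19 it was -0.138, -0.027 and -0.086 in knockout, against 0.297, 0.099 and -0.133 in wild type. What part these splits played in single genes was not tested.

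**Figure D2:**
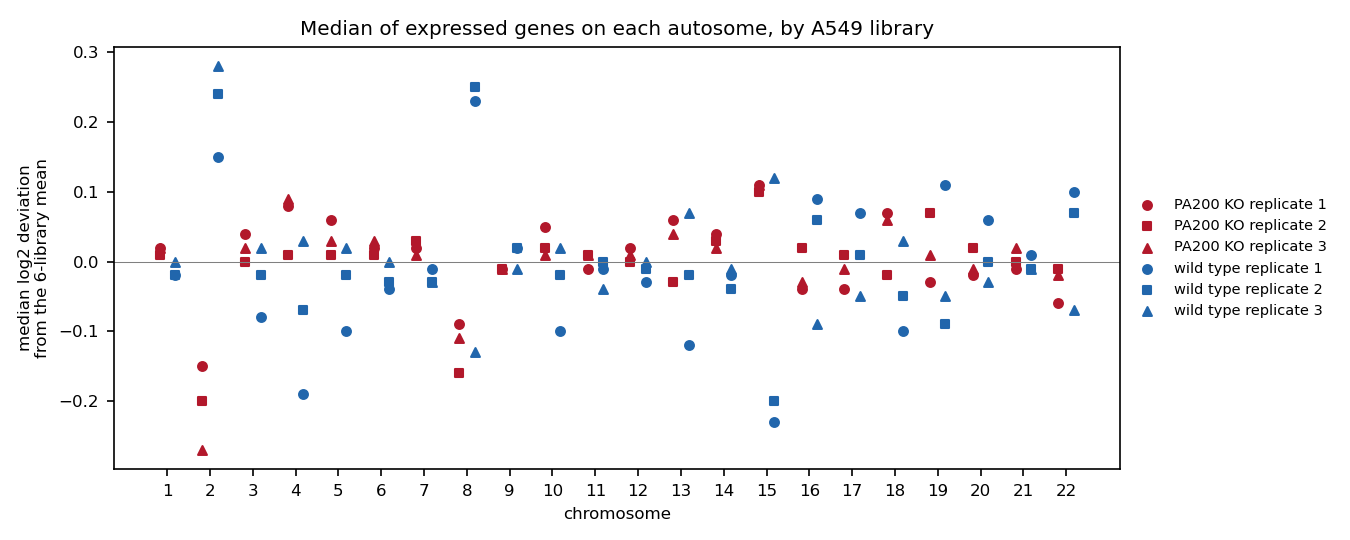
Median log2 deviation from the 6-library mean over expressed genes of each autosome, for each A549 library, with PA200 KO (red) left of wild type (blue). On chromosome 2 all KO points lie below all wild-type points, while on chromosomes 8 and 15 wild-type replicate 3 (triangle) lies with the KO points at -0.13 and 0.12.

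The called changes were larger in genes of low expression. Among 2801 tested genes with a mean under 1 CPM, 20 rose and 20 fell, with median log2 fold changes of 3.49 and -2.04. Between 1 and 10 CPM, 99 rose and 71 fell of 6372, with medians of 2.28 and -1.42. Between 10 and 100 CPM, 64 rose and 116 fell of 8735, with medians of 1.24 and -0.89. Of these 116, 73 lay on chromosome 2. At 100 CPM and above, 16 rose and 24 fell of 2185, with medians of 1.17 and -0.77, and 12 of the 24 lay on chromosome 2. The median SE over all tested genes was 0.40 in the lowest class and 0.14 in the highest. Without chromosome 2, the excess of lower calls between 10 and 100 CPM turned to 58 higher and 43 lower.

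By kind of gene, 159 of 13577 protein-coding genes rose and 190 fell, 102 of the fallen ones on chromosome 2. Of 3351 long non-coding genes 27 rose and 24 fell, 13 of them on chromosome 2, and of 2251 pseudogenes 10 rose and 10 fell.

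The most abundant transcripts that rose were CD24, a mucin-like surface glycoprotein, MYO1E, an unconventional myosin, and MORC4, a chromatin-associated ATPase. CNTN1, a neuronal adhesion protein of the contactin family, GALNT1, which starts mucin-type O-glycosylation, and the nuclear non-coding RNA MALAT1 completed the 6. CD24 had 857.9, 750.5 and 940.0 CPM in knockout and 339.5, 472.6 and 281.2 CPM in wild type (log2 fold change 1.22, SE 0.20, adjusted p = 0.0306). CNTN1 had 480.2, 477.0 and 745.5 CPM in knockout and 164.3, 270.8 and 132.7 CPM in wild type (1.58, SE 0.29, adjusted p = 0.0426). MALAT1 had 236.2, 291.0 and 266.0 CPM in knockout and 163.3, 170.6 and 140.7 CPM in wild type. All knockout values lay above all wild-type values in these 3 genes. After centring within arms CD24 stood at 1.11 (adjusted p = 0.0527) and MYO1E, on chromosome 15, at 0.50, against 0.71 before (adjusted p = 0.0886), and both missed the threshold.

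Among abundant transcripts that fell, AKR1C2, a steroid-converting enzyme whose near-identical AKR1C relatives could take some of its reads, had 2113.7, 2033.6 and 2295.9 CPM in knockout and 3390.6, 2922.9 and 3360.0 CPM in wild type (-0.59, SE 0.12, adjusted p = 0.0487), and stood at -0.68 after centring (adjusted p = 0.0501). GSR, glutathione reductase, had 289.1, 282.1 and 284.9 CPM in knockout and 520.4, 557.7 and 410.7 CPM in wild type (-0.80, SE 0.14, adjusted p = 0.0389). It lies on chromosome 8 and stood at -0.55 after centring within arms (adjusted p = 0.0454). SRXN1, a sulfiredoxin, and SLC6A6, the taurine transporter, fell by 0.76 and 0.71 on the log2 scale. HDLBP, an RNA-binding protein (-0.57), and KYNU, a kynureninase of tryptophan breakdown (-0.76), lie on chromosome 2 and missed the threshold after centring, at -0.10 and -0.29 (adjusted p = 0.685 and 0.351).

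Genes near silent in wild type, with a mean under 0.5 CPM there, numbered 39888 in the table, of which 1019 were tested and 52 rose, 26.1% of all higher calls. The mirror group, near silent in knockout, numbered 39839, of which 991 were tested and 23 fell, 9.96% of all lower calls. A gene near silent in one group could be tested only through counts in the other, so these numbers describe the calls and support no shift between groups. Of the 52, 41 were protein-coding, 3 lay on chromosome 2, 44 averaged at least 1 CPM in knockout, and 2 at least 10 CPM. Their median log2 fold change was 3.67, also when genes without a wild-type count were set to their lower bound. Of the 23, 15 were protein-coding and 8 lay on chromosome 2. After centring within arms, 39 genes near silent in wild type rose and 6 near silent in knockout fell, and without wild-type replicate 2 the counts were 2 and 0. Another tool, DESeq2, called 113 and 50.

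PRICKLE1, a planar cell polarity protein, was the most abundant of the 52 in knockout. It had 10.6, 17.3 and 10.7 CPM in knockout and 0.122, 0.239 and 0.219 CPM in wild type (log2 fold change 5.99, SE 0.36, adjusted p = 0.00109). Every knockout library was above 10 CPM and every wild-type library was below 0.5 CPM. EPHA4, an ephrin receptor on chromosome 2, had 1.78, 4.61 and 10.1 CPM in knockout and 0.488, 0.575 and 0.274 CPM in wild type, so its knockout libraries spread widely. PRR15, a small proline-rich protein, had 2.72, 3.77 and 6.89 CPM in knockout and 0.244, 0.0479 and 0.219 CPM in wild type, and its call held in 5 of 6 fits without 1 library. PABPC4L, a relative of the cytoplasmic poly(A)-binding proteins, had 2.88, 3.93 and 5.16 CPM in knockout, against 0, 0 and 0.219 CPM in wild type. PTPRE, a receptor-type tyrosine phosphatase, had 3.88, 6.64 and 3.41 CPM in knockout and 0.122, 0.144 and 0.822 CPM in wild type. CPE, a prohormone-processing carboxypeptidase, had 0.744, 4.26 and 8.09 CPM in knockout and 0, 0.0479 and 0.164 CPM in wild type, with a log2 fold change of 5.84, and of 5.70 after centring, where it missed the threshold (adjusted p = 0.0575).

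No read was counted for DPP4 or BNC1 in any wild-type library, while every knockout library had at least 10 counts. DPP4, a membrane dipeptidase that trims incretins and chemokines, had 42, 46 and 27 counts in knockout replicates 1, 2 and 3. BNC1, basonuclin 1, a zinc finger factor of squamous epithelium and germ cells, had 23, 82 and 62. With the wild-type group set to a floor of 3 counts in all, DPP4 was at least 21-fold higher and BNC1 at least 30.5-fold higher in knockout, bounds that cover counting error only. DPP4 lies on chromosome 2, among genes most of which were lower. The reverse, no count in knockout with at least 10 in each wild-type library, was met by no gene. Every knockout library was deeper than every wild-type library, so the reverse rule was the harder one to meet. The outcomes of the rules are therefore not comparable. In H1299 DPP4 had 0 counts in all 6 libraries, whereas BNC1 had 17.2 to 27.9 CPM in knockout and 16.1 to 26.3 CPM in wild type.

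The promoters below, 250 bases before to 50 bases after the start site in RefSeq's annotation of GRCh38.p14, belong to these 2 genes and to PRICKLE1, EHF, SLCO2B1 and F2RL2, whose calls held without any 1 library. They are shown to let the sequence contexts be compared, with CG dinucleotides in capitals. Each gene is shown at 1 start site. The PRICKLE1, EHF and SLCO2B1 windows lie within the gene's span, away from its outermost annotated start. Which start sites A549 uses was not examined.
PRICKLE1 (chr12:42483566-42483865, minus strand): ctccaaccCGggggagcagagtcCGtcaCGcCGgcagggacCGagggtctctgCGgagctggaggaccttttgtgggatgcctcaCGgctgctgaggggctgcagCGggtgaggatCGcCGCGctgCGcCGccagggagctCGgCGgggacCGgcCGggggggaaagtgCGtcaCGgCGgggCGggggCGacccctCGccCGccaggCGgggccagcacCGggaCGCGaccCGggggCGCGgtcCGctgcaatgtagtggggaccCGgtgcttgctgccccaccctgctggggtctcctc
EHF (chr11:34624007-34624306, plus strand): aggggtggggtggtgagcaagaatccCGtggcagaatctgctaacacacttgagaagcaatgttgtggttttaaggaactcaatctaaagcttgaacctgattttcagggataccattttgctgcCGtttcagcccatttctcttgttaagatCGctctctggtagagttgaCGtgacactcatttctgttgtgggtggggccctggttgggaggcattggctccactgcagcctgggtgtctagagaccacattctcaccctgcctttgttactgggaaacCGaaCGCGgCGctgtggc
DPP4 (chr2:162074166-162074465, minus strand): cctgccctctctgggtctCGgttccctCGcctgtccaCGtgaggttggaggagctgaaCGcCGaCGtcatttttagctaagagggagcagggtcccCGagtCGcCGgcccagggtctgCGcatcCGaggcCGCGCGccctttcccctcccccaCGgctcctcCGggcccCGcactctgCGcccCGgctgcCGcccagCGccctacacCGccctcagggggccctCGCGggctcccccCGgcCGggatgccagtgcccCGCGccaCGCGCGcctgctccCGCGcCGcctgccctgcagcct
BNC1 (chr15:83284615-83284914, minus strand): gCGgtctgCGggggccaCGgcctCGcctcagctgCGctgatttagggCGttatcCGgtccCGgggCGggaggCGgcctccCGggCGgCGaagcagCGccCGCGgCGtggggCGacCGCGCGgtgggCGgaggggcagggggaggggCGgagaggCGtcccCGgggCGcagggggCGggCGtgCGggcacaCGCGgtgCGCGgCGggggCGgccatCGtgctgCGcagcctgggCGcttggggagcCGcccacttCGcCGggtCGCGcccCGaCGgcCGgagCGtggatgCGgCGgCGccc
SLCO2B1 (chr11:75150857-75151156, plus strand): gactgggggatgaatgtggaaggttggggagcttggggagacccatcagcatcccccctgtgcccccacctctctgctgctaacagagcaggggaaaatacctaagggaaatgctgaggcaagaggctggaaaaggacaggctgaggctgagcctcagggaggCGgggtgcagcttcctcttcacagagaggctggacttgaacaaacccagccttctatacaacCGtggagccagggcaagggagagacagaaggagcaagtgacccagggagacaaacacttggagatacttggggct
F2RL2 (chr5:76623354-76623653, minus strand): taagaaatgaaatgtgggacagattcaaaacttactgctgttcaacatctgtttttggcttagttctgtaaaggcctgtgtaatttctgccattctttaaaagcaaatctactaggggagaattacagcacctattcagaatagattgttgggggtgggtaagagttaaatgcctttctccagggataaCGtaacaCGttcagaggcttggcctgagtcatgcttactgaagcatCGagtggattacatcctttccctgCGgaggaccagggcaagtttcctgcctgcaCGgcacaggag
The PRICKLE1, DPP4 and BNC1 promoters held 33, 34 and 50 CG dinucleotides in 300 bases, and the EHF, SLCO2B1 and F2RL2 promoters held 8, 2 and 5. At the start sites shown, both kinds therefore occur among the genes that rose. The 11206 tested genes with a promoter in that table held a median of 26. Neither strand of the 6 windows contains TATAAA, which 5.95% of the 11206 promoters hold. The median was 16 over 128 of the 199 genes called higher and 27 over 144 of the 231 called lower. It was 15 over 402 of 1445 tested genes that were near silent in either group and not called. These differences were not tested. Since only 55.8% of tested genes have a promoter in the table, no conclusion is drawn from them.

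Of the genes near silent in knockout, RAB39B, a neuronal Rab GTPase on the X chromosome, had 0.485, 0.612 and 0.384 CPM in knockout and 2.14, 2.39 and 2.03 CPM in wild type (-2.15, SE 0.28, adjusted p = 0.0167). PTPRN2, a phosphatase-like protein of dense-core vesicles, had 0.615, 0 and 0.168 CPM in knockout and 9.76, 3.26 and 3.07 CPM in wild type, with a log2 fold change of -4.36, and of -4.40 after centring, where it missed the threshold (adjusted p = 0.0543). SIX3, a homeobox factor of forebrain and eye, had 0.226, 0.226 and 0.12 CPM in knockout and 1.22, 1.34 and 1.42 CPM in wild type. It is on chromosome 2 and kept its call after centring (-2.34, adjusted p = 0.0171). CTNNA2, the neuronal alpha-catenin, the collagen chain COL6A3, the CDK5 activator CDK5R2 and the potassium channel subunits KCNG3 and KCNIP3 are also on chromosome 2. They fell with all 6 libraries and missed the threshold after centring, with adjusted p between 0.0801 and 0.104. Their log2 fold changes before and after centring were -2.39 and -1.93 for CDK5R2, -2.20 and -1.71 for KCNG3, -2.06 and -1.60 for COL6A3 and -2.03 and -1.57 for KCNIP3, so most of each change was left. CTNNA2 had no count in 2 knockout libraries and 0.168 CPM in the other, against 1.46, 0.814 and 1.59 CPM in wild type. RPL31P49, a ribosomal protein pseudogene that may take reads of its parent, and RF00096, a small RNA named by its Rfam family, make up the 10. RPL31P49 stood at -1.86 before and -1.88 after centring, where it missed the threshold (adjusted p = 0.0527).

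**Figure D3:**
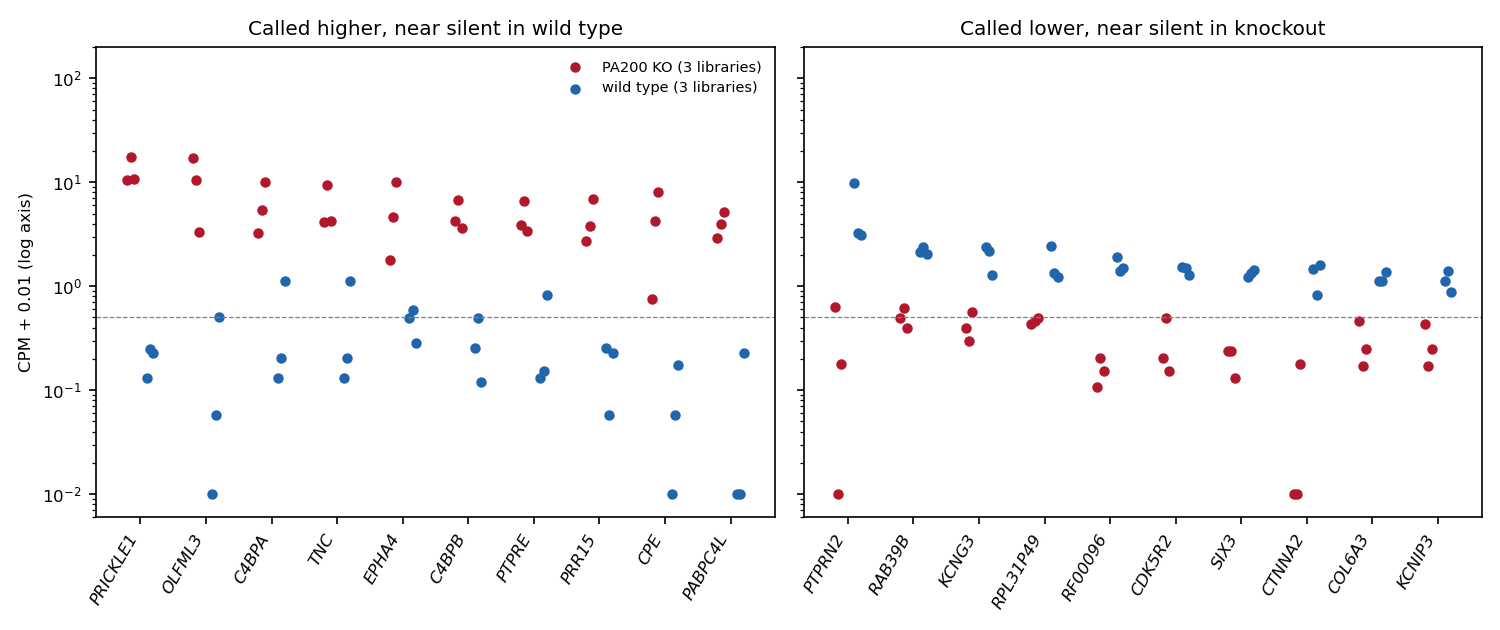
CPM + 0.01 on a log axis for each A549 library, PA200 KO (red) left of wild type (blue), for the 10 genes with the highest KO mean among those called higher and near silent in wild type (left panel) and the 10 with the highest wild-type mean among those called lower and near silent in KO (right panel). Points at the bottom are libraries without a count, the dashed line is at 0.5 CPM, and KO and wild-type points do not overlap for any of the 20 genes.

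Protein-coding symbols were sorted into 42 functional classes by their gene family names, and a gene may be in several. The classes held 6465 tested genes and 192 of the 430 called ones, 97 higher and 95 lower. Of the 95 lower genes, 43 lay on chromosome 2, and of the 97 higher ones 14 did. A called gene occurred in 36 classes. In 9 of the 30 classes with a fallen gene every fallen gene lay on chromosome 2, and in 15 of the 30 at least as many lay on it as off it. Classes with more lower than higher calls numbered 17, and 9 when chromosome 2 was left out. Classes with more higher than lower calls numbered 16, and 20 without it.

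**Figure D4:**
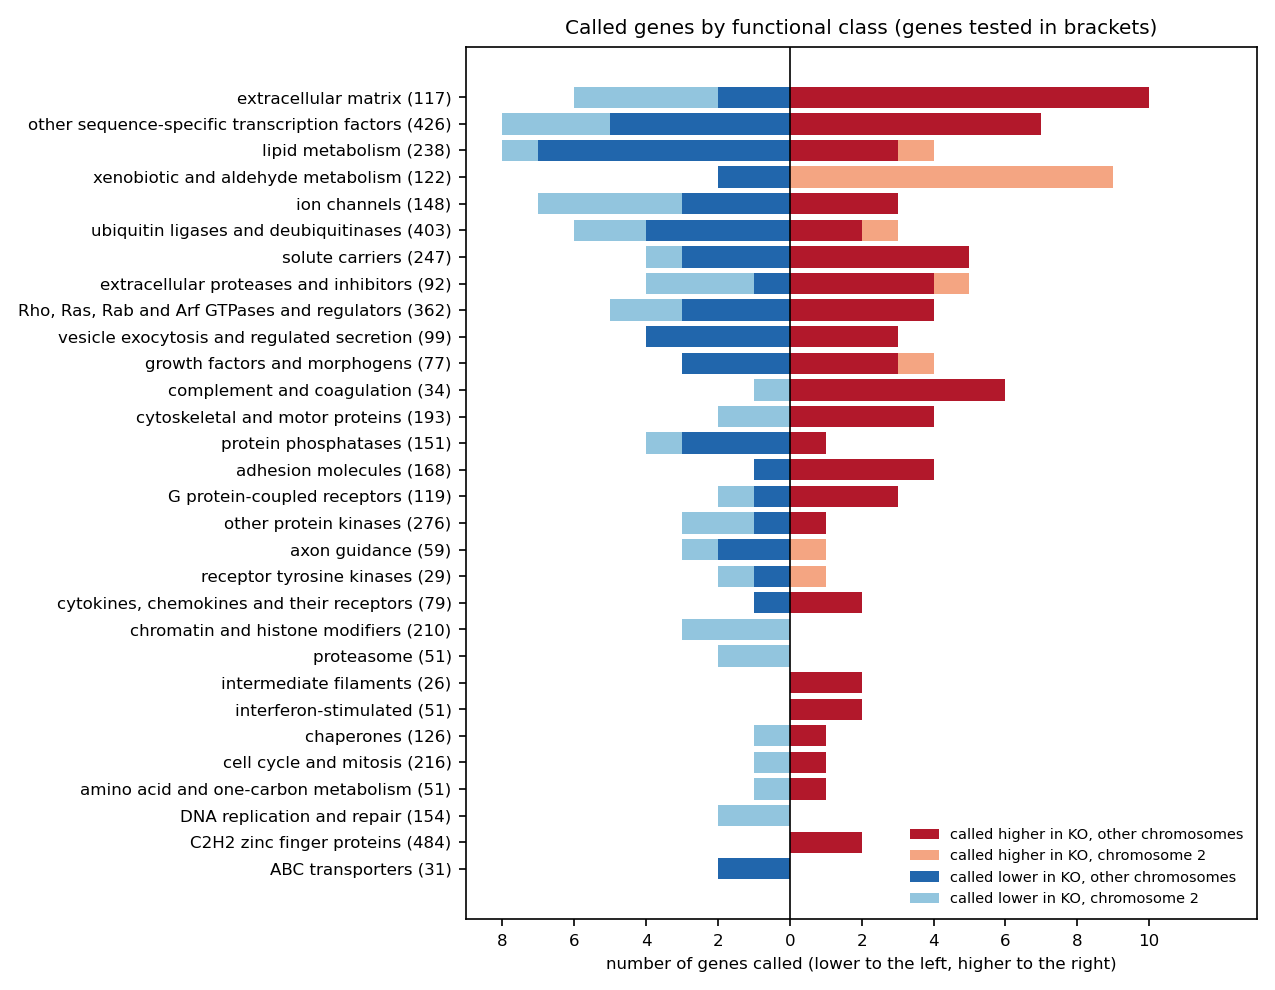
Number of genes called in each functional class with at least 2 calls, lower in PA200 KO to the left and higher to the right, with chromosome 2 genes in the pale shade. Genes tested are in brackets, and the class of little-characterised genes is not drawn. The 9 higher genes of xenobiotic metabolism and all 3 lower chromatin modifiers lie on chromosome 2, while the 10 higher matrix genes lie elsewhere.

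Complement and coagulation genes, which encode secreted and membrane-bound regulators of opsonisation and clotting, had the highest share of calls: 6 of 34 tested genes rose and 1 fell (20.6% called, against 2.14% of all genes), with a median log2 fold change of 0.39, against -0.01 over all tested genes. C4BPA and C4BPB, the chains of C4b-binding protein, had 3.24, 5.35 and 10.1 CPM and 4.27, 6.8 and 3.63 CPM in knockout, against 0.122, 0.192 and 1.1 CPM and 0.244, 0.479 and 0.11 CPM in wild type. THBD, thrombomodulin, had 45.4, 67.5 and 74.2 CPM in knockout and 7.26, 9.48 and 17.4 CPM in wild type (2.46, SE 0.33, adjusted p = 0.017). The fallen member was TFPI, the tissue factor pathway inhibitor, on chromosome 2, with 42.0, 53.8 and 65.8 CPM in knockout and 156.3, 114.3 and 95.3 CPM in wild type. After centring within arms 3 of the 34 genes rose and TFPI stood at -0.73 (adjusted p = 0.194), while C4BPA, at 3.72 before and 3.71 after, missed the threshold (adjusted p = 0.0518).

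Extracellular matrix genes came next among the larger classes, with 10 of 117 higher and 6 lower (13.7% called) and a median log2 fold change of -0.10, or 0.08 without chromosome 2. Of the 6 that fell, 4 lay on chromosome 2, and after centring 7 rose and 1 fell. OLFML3, a secreted olfactomedin-domain protein, had 17, 10.4 and 3.29 CPM in knockout and 0, 0.0479 and 0.493 CPM in wild type (5.78, SE 0.91, adjusted p = 0.0288). TNC, tenascin C, had 4.14, 9.45 and 4.27 CPM in knockout and 0.122, 0.192 and 1.1 CPM in wild type. NID2, a basement membrane linker, had 9.67, 9.32 and 6.72 CPM in knockout and 1.04, 1.15 and 3.34 CPM in wild type, with a log2 fold change of 2.21, and of 2.17 after centring, where it missed the threshold (adjusted p = 0.0529). HMCN1, hemicentin, had 1.07, 0.677 and 0.912 CPM in knockout and 0, 0.0958 and 0.164 CPM in wild type. The member that still fell after centring was the laminin chain LAMC3, at 0.453, 0.87 and 0.48 CPM in knockout and 5.98, 5.89 and 2.79 CPM in wild type. COL4A4, a basement membrane collagen on chromosome 2, had 5.08, 9.32 and 7.18 CPM in knockout and 15.7, 22.1 and 43.4 CPM in wild type, with a log2 fold change of -1.91, and of -1.42 after centring (adjusted p = 0.104).

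Of 92 extracellular proteases and inhibitors, 5 rose and 4 fell (9.78% called). ANPEP, aminopeptidase N, had 21.6, 67.3 and 20.8 CPM in knockout and 7.57, 4.98 and 8.71 CPM in wild type, and SLPI, a secreted inhibitor of leukocyte elastase, had 1.33, 3.48 and 5.14 CPM in knockout and 0.427, 0.0958 and 0.548 CPM in wild type. Both missed the threshold after centring, where ANPEP stood at 2.17, against 2.37 before (adjusted p = 0.0739), and SLPI at 3.29, against 3.24 before (adjusted p = 0.0599). Among the fallen, ADAM23, a catalytically inactive, integrin-binding ADAM protein on chromosome 2, had 0.226, 0.935 and 1.49 CPM in knockout and 20.1, 17.4 and 17.7 CPM in wild type (-4.33, SE 0.48, adjusted p = 0.0122). It kept the call after centring at -3.87, whereas ADAM17, the TNF-converting sheddase, also on chromosome 2, changed by -0.81 before and -0.35 after (adjusted p = 0.185).

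Growth factors and morphogens changed in both directions, with 4 higher and 3 lower of 77 (9.09% called). BMP4 had 14.7, 13.8 and 24.4 CPM in knockout and 0.976, 1.63 and 1.7 CPM in wild type (3.61, SE 0.31, adjusted p = 0.0088). WNT5A, a non-canonical Wnt ligand, had 1.49, 2.29 and 4.66 CPM in knockout and 0.122, 0 and 0.219 CPM in wild type. RSPO3, an R-spondin that amplifies Wnt signals, had 27.3, 5.83 and 21.5 CPM in knockout and 158.2, 254.1 and 194.9 CPM in wild type (-3.47, SE 0.50, adjusted p = 0.0218). SFRP1, a secreted Wnt antagonist on chromosome 8, had 61.8, 47.0 and 40.1 CPM in knockout and 94.2, 114.1 and 87.6 CPM in wild type, with a log2 fold change of -0.99, and of -0.75 after centring (adjusted p = 0.0674). TGFA, an EGF receptor ligand, rose although it lies on chromosome 2, with 36.8, 29.8 and 24.1 CPM in knockout and 13.5, 14.1 and 16.4 CPM in wild type. Its receptor class, the receptor tyrosine kinases, held 3 calls among 29 genes, EPHA4 higher and MERTK, an efferocytosis receptor, and the pseudokinase PTK7 lower. ANGPTL4, a secreted inhibitor of lipoprotein lipase, fell to 1.94, 3.61 and 1.78 CPM in knockout, against 23.5, 13.3 and 14.9 CPM in wild type.

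Keratins and adhesion molecules were called in small numbers. Of 26 intermediate filament genes 2 rose (7.69% called), and their median log2 fold change was 0.37 with 19.2% below 0. KRT19, a simple-epithelium keratin, had 129.4, 152.3 and 164.7 CPM in knockout and 40.5, 43.6 and 16.8 CPM in wild type, and KRT222, a keratin-like protein without the full rod, rose by 3.28. KRT7, another simple-epithelium keratin, had 1229.9, 1224.5 and 1216.6 CPM in knockout and 1880.1, 1518.2 and 1501.8 CPM in wild type, a log2 fold change of -0.42 that did not pass the test (adjusted p = 0.124). Of 168 adhesion molecules 4 rose and 1 fell (2.98% called). CLDN2, a pore-forming claudin, had 202.1, 150.2 and 143.7 CPM in knockout and 40.7, 66.0 and 34.9 CPM in wild type (1.81, SE 0.25, adjusted p = 0.0196). Its gene lies within the span of MORC4, on the other strand, so the pair may share reads. PKP2, a desmosomal plakophilin, had 37.3, 28.9 and 37.1 CPM in knockout and 12.4, 12 and 15.9 CPM in wild type. PCDH10, a protocadherin, had 57 counts in knockout and 1 in wild type, a ratio of 31.2 after allowing for depth (95% counting interval 5.38 to 1254.9). ITGA9, an integrin chain, was the member that fell, by 1.80, and stood at -1.82 after centring, where it missed the threshold (adjusted p = 0.0511). Of 31 tetraspanins and L6 family proteins, TM4SF4 rose, with 138.0, 32.0 and 51.0 CPM in knockout and 2.93, 2.49 and 6.3 CPM in wild type.

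Transcription factors not sorted by name into the C2H2 zinc finger class held 7 higher and 8 lower calls among 426 (3.52%), and after centring 6 of each. The 7 include BNC1, although it is a zinc finger factor. EHF, an epithelial ETS factor, had 23.3, 28.1 and 32.4 CPM in knockout and 1.65, 3.35 and 0.876 CPM in wild type (3.81, SE 0.40, adjusted p = 0.0121). HNF4G, a nuclear receptor of gut and liver, had 7.05, 4.67 and 7.51 CPM in knockout and 1.04, 1.53 and 1.26 CPM in wild type. NR1H4, the bile acid receptor FXR, had 231 counts in knockout and 2 in wild type, a ratio of 63.3 (95% counting interval 17.3 to 525.7). NR0B1, an orphan receptor known as a NRF2-dependent factor in KEAP1-mutant lung cancer, had 11, 12.6 and 11.4 CPM in knockout and 49.7, 30.9 and 22.7 CPM in wild type (-1.56, SE 0.27, adjusted p = 0.0373). MXI1, an antagonist of MYC, fell to 9.03, 8.99 and 7.9 CPM in knockout, against 19.3, 19 and 21.1 CPM in wild type, and BATF3, an AP-1 family factor, fell by 1.32. The C2H2 zinc finger class, which leaves out BNC1, held 2 calls among 484 (0.413%), ZNF548 and ZNF419. They were higher by 1.11 and 0.78 on the log2 scale and neither was called after centring, at 0.93 and 0.59 (adjusted p = 0.0943 and 0.091). The median log2 fold change of the class was 0.16, with 31.6% below 0.

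Ion channels and receptors changed in both directions. Of 148 ion channel genes 3 rose and 7 fell (6.76% called), and 4 of the 7 lay on chromosome 2. KCNS3, a modulatory potassium channel subunit there, had 1.49, 2.0 and 1.99 CPM in knockout and 8.05, 9.05 and 6.41 CPM in wild type and kept the call after centring (-1.61, adjusted p = 0.031). GABRE, a GABA-A receptor subunit, rose by 0.90 on the log2 scale. CACNG7, a transmembrane AMPA receptor regulatory protein, fell by 1.72. Of 119 G protein-coupled receptors 3 rose and 2 fell (4.2% called). LGR6, an R-spondin receptor, had 6.47, 8.09 and 6.6 CPM in knockout and 0.976, 0.527 and 0.438 CPM in wild type (3.46, SE 0.31, adjusted p = 0.00882). EDNRA, the endothelin A receptor, rose by 2.74. F2RL2, the thrombin receptor PAR3, had 2.98, 2.22 and 1.87 CPM in knockout and 25.4, 12.4 and 19.3 CPM in wild type (-3.01, SE 0.30, adjusted p = 0.0116). TACR1, the substance P receptor on chromosome 2, fell by 2.44 and stood at -1.97 after centring, where it missed the threshold (adjusted p = 0.082).

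Of 247 solute carriers 5 rose and 4 fell (3.64% called). SLCO1B3, an organic anion transporter of liver that some tumours express, had 68.3, 48.8 and 71.7 CPM in knockout and 20.5, 28.4 and 29 CPM in wild type. SLC22A3, an organic cation transporter, had 98.8, 85.2 and 143.6 CPM in knockout and 37.1, 48.8 and 58.9 CPM in wild type. SLCO2B1, another organic anion transporter, had 0.874, 1.03 and 0.576 CPM in knockout and 25.4, 28.7 and 10.4 CPM in wild type (-4.71, SE 0.43, adjusted p = 0.0092). Members of the SLCO family thus changed in both directions. SLC30A3, a zinc transporter on chromosome 2, fell by 1.88 and stood at -1.42 after centring, where it missed the threshold (adjusted p = 0.077). Of 31 ABC transporters 2 fell (6.45% called), the urate and drug exporter ABCG2, with 77.2, 56.2 and 67.0 CPM in knockout and 125.3, 123.1 and 102.6 CPM in wild type, and ABCC8, a potassium channel regulator, by 1.58. ABCC8 stood at -1.62 after centring and missed the threshold (adjusted p = 0.0529).

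Xenobiotic and aldehyde metabolism shows how a single locus can fill a class. Of 122 tested genes 9 rose and 2 fell (9.02% called), and all 9 were UGT1A genes on chromosome 2. The UGT1A glucuronosyltransferases share their last exons, so a read from that part matches every member, and the 9 symbols may stand for 1 change. Taken as 1 locus, they leave 191 higher calls in all, 8 on chromosome 2 and 1 in this class, and 89 in all classes, 6 of these on chromosome 2. UGT1A1 had 7.76, 20.6 and 20.6 CPM in knockout and 2.93, 3.45 and 5.26 CPM in wild type (2.07, SE 0.40, adjusted p = 0.0458), and the log2 fold changes of the 9 ranged from 2.05 to 2.28. The other members that changed were AKR1C2 and SRXN1, both lower. The rest of the 16 higher genes on chromosome 2 were PELI1, TGFA, EVA1A, NMI, DPP4, SGPP2 and EPHA4, whose functions lie apart. SGPP2, a sphingosine-1-phosphate phosphatase, had 4.85, 2.32 and 3.75 CPM in knockout and 0.488, 0.383 and 0.274 CPM in wild type (3.25, SE 0.38, adjusted p = 0.0127). EVA1A, a lysosomal protein, had 6.89, 12.7 and 13.1 CPM in knockout and 1.65, 2.97 and 2.3 CPM in wild type.

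Lipid metabolism leaned towards lower calls, with 4 higher and 8 lower of 238 (5.04% called) and 1 of the 8 on chromosome 2, and centring left 2 higher and 6 lower. ACOX2, a peroxisomal oxidase of bile acid intermediates, had 1.23, 1.42 and 0.888 CPM in knockout and 9.03, 8.76 and 4.98 CPM in wild type (-2.69, SE 0.31, adjusted p = 0.0122). APOC1, an apolipoprotein, had 6.57, 7.64 and 6.77 CPM in knockout and 29.1, 29.1 and 19.6 CPM in wild type (-1.89, SE 0.19, adjusted p = 0.0116). LIPG, endothelial lipase, rose to 2.72, 0.516 and 1.73 CPM in knockout, against 0.122, 0.144 and 0.11 CPM in wild type. Its log2 fold change was 3.67, and 3.54 after centring, where it missed the threshold (adjusted p = 0.0599). In central carbon metabolism 1 of 81 genes was called, the glycogen phosphorylase PYGL, which had 123.5, 140.9 and 110.0 CPM in knockout and 217.1, 225.4 and 202.9 CPM in wild type (-0.79, SE 0.13, adjusted p = 0.0327).

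Signalling enzymes were called at rates near the background. Of 362 small GTPases and their regulators 4 rose and 5 fell (2.49% called), of 276 other protein kinases 1 rose and 3 fell (1.45%), and of 151 protein phosphatases 1 rose and 4 fell (3.31%). RASSF10, a Ras-association domain protein, had 11.8, 14.8 and 14 CPM in knockout and 4.33, 3.02 and 4.87 CPM in wild type. ULK1, which starts autophagy, had 25.9, 24.4 and 29.3 CPM in knockout and 52.2, 47.2 and 47.9 CPM in wild type. It was the single fallen kinase off chromosome 2, since MAP3K20 and STK25 lie on it and missed the threshold after centring, at -0.43 and -0.39, against -0.91 and -0.85 before (adjusted p = 0.207 and 0.278). DUSP5, a nuclear ERK phosphatase, had 61.6, 76.1 and 57.1 CPM in knockout and 171.0, 130.2 and 125.4 CPM in wild type. Of 79 cytokines, chemokines and receptors 2 rose and 1 fell (3.80% called): TNFSF15, a TNF family ligand, had 12.8, 23 and 25.7 CPM in knockout and 2.75, 4.02 and 5.31 CPM in wild type. CSF1, the macrophage growth factor, had 21.7, 33.9 and 23.6 CPM in knockout and 79.1, 90.1 and 45.0 CPM in wild type, with a log2 fold change of -1.44, and of -1.47 after centring, where it missed the threshold (adjusted p = 0.0507). The guanylate-binding proteins GBP1 and GBP3 were the 2 called among 51 interferon-stimulated genes (3.92%), both higher, at 0.841, 1.77 and 2.26 CPM and 5.92, 9.9 and 11.5 CPM in knockout, against 0.122, 0.0479 and 0.0548 CPM and 2.07, 1.01 and 1.64 CPM in wild type.

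Secretory, guidance, ubiquitin and cytoskeletal genes were called in both directions. Of 99 genes of vesicle exocytosis 3 rose and 4 fell (7.07% called), none of them on chromosome 2. STX3, a syntaxin of apical membrane fusion, had 23.7, 27.8 and 29.3 CPM in knockout and 11, 11.7 and 15.7 CPM in wild type, while RIMS3, a protein of the presynaptic release site, had 5.08, 5.0 and 4.73 CPM in knockout and 8.54, 9.58 and 11.9 CPM in wild type. Of 59 axon guidance genes 1 rose and 3 fell (6.78% called). RTN4RL2, a relative of the Nogo receptor, had 2.94, 4.42 and 4.51 CPM in knockout and 44.3, 43 and 11.3 CPM in wild type, so wild-type replicate 3 stood far below the other wild-type libraries. Of 403 ubiquitin ligases and deubiquitinases 3 rose and 6 fell (2.23% called), a share near the 2.14% of all genes. TRIM67, a brain-enriched TRIM protein, had 2.36, 2.1 and 2.3 CPM in knockout and 5.74, 6.94 and 5.64 CPM in wild type (-1.44, SE 0.19, adjusted p = 0.0171). Of 193 cytoskeletal and motor genes 4 rose and 2 fell (3.11% called), and the fallen EPB41L5 and FMNL2, a FERM protein and a formin, lie on chromosome 2 and missed the threshold after centring, at -0.81 and -0.39, against -1.28 and -0.86 before (adjusted p = 0.0527 and 0.22). PLCG2, a phospholipase C, had 5.6, 5.58 and 3.91 CPM in knockout and 13.7, 13.3 and 17.4 CPM in wild type, and TESC, the calcium-binding tescalcin, had 20.3, 22.3 and 19.7 CPM in knockout and 53.6, 62.4 and 56.6 CPM in wild type (-1.47, SE 0.12, adjusted p = 0.00639).

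Chromatin, DNA repair, cell cycle, translation and proteasome classes held few calls. All 3 called chromatin and histone modifiers among 210 (1.43%), the histone demethylase KDM3A, the acetyltransferase subunit ING5 and the annealing helicase SMARCAL1, were lower and on chromosome 2. Their log2 fold changes of -0.70, -0.65 and -0.59 stood at -0.21, -0.19 and -0.12 after centring (adjusted p between 0.505 and 0.658). The 2 called DNA replication and repair genes among 154 (1.3%), ERCC3, a helicase of TFIIH, and NHEJ1, an end-joining factor, were also lower and on it. ERCC3 had 51.5, 49.6 and 52.4 CPM in knockout and 75.1, 78.6 and 81.1 CPM in wild type, and stood at -0.15 after centring (adjusted p = 0.481). The same held for NCAPH, a condensin subunit (-0.56, then -0.10), and for ATP5MC3, an ATP synthase subunit (-0.82, then -0.36). Of 51 proteasome genes 2 fell (3.92% called), PSME4 and PSMD14, the deubiquitinase of the 19S cap. PSMD14, on chromosome 2, had 140.2, 141.0 and 132.1 CPM in knockout and 207.3, 206.0 and 202.9 CPM in wild type, and stood at -0.11 after centring (adjusted p = 0.648). The median log2 fold change over the proteasome genes was 0.01. Outside chromosome 2, 1 of 202 cell cycle genes rose, CDKN2C, a CDK4 and CDK6 inhibitor, with 19.6, 27.9 and 26.8 CPM in knockout and 14.1, 12.2 and 13.1 CPM in wild type. It stood at 0.92 before and 0.89 after centring, where it missed the threshold (adjusted p = 0.0555). PABPC4L was the member called among 95 translation factors and tRNA synthetases. DNAJC15, a mitochondrial J protein, was the 1 of 126 chaperones that rose, with 0.55, 0.58 and 0.84 CPM in knockout and 0, 0.0958 and 0.0548 CPM in wild type.

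In 6 classes edgeR called no gene. Cytosolic ribosomal protein genes had a median log2 fold change of -0.29 over 86 genes with 91.9% below 0. Of these, 1 higher and 21 lower had an unadjusted p under 0.05, and DESeq2 called 5 lower. Histone genes, 36 tested, had a median of 0.29 with 19.4% below 0. Of these, 8 higher and 1 lower had an unadjusted p under 0.05, and DESeq2 called 1 each way. Histone transcripts mostly lack poly-A tails, so libraries of poly-A RNA hold a part of them. The 210 splicing and mRNA processing genes had 13 higher and 10 lower at an unadjusted p under 0.05, and the 104 mitochondrial ribosome genes had 6 higher and 9 lower. Among 25 MHC and antigen presentation genes and 38 cancer-testis antigens, 4 higher and 1 lower were at that level in each. DESeq2 called 1 higher and 2 lower splicing genes, 2 higher and 5 lower mitochondrial ribosome genes, 2 higher MHC genes and 1 higher cancer-testis antigen. The third tool, limma-voom, called none in any of the 6 classes.

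Some called genes lay near others that moved the same way. How often this occurs among genes picked regardless of their change was not worked out, so the counts only describe the calls. Some groups hold overlapping genes, which may share reads. Such pairs are DPYD and DPYD-AS1, PRICKLE1 and AC079601.1, and MORC4 and CLDN2, among others. Counting called genes of the same direction within 200000 bases of each other, 27 groups held 65 of the 183 higher genes outside chromosome 2, and 13 groups held 28 of the 113 lower ones. The largest was the IGFL locus on chromosome 19, with 7 higher genes, all 7 that were tested in its span. IGFL genes encode small secreted proteins related to insulin-like growth factors. IGFL2-AS1, an antisense transcript, had 66.0, 72.6 and 87.3 CPM in knockout and 14.6, 4.41 and 4.27 CPM in wild type, and IGFL4 had 3.66, 3.0 and 3.87 CPM in knockout and 0.488, 0.814 and 0.767 CPM in wild type. The pseudogene IGFL1P1 and IGFL2 rose by 4.46 and 2.10.

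On chromosome 1, C1orf116, C4BPB, C4BPA and CD55, 4 of 6 tested genes in a span that carries regulators of complement activation, rose together. CD55, decay-accelerating factor, had 72.6, 120.7 and 82.2 CPM in knockout and 43.4, 46.8 and 51.0 CPM in wild type, with a log2 fold change of 0.96, and of 0.94 after centring, where it missed the threshold (adjusted p = 0.0612). DPYD, the enzyme that starts pyrimidine breakdown, had 34.8, 31.0 and 32.6 CPM in knockout and 6.41, 7.85 and 11.4 CPM in wild type (1.94, SE 0.21, adjusted p = 0.0122), and rose with its antisense gene DPYD-AS1 and with MIR137HG, a microRNA host gene. BCL2L15, OLFML3 and the synaptotagmin SYT6 rose by 2.91, 5.78 and 4.77. On chromosome 9, MIR31HG, the interferon pseudogene IFNWP19 and IFNE, an epithelial interferon, rose by 1.58, 1.69 and 1.60. SLCO1B3 and SLCO1B1 rose on chromosome 12 by 1.28 and 2.28. After centring IFNE stood at 1.62 (adjusted p = 0.062) and SLCO1B1 at 2.24 (adjusted p = 0.0543), and both missed the threshold. Lower groups included LAMC3, AIF1L and FAM78A on chromosome 9, by 3.02, 1.59 and 3.34 on the log2 scale, and KIAA0319 and ACOT13 on chromosome 6. ACOT13 stood at -0.76 before and -0.73 after centring, where it missed the threshold (adjusted p = 0.0538). The strand setting of the counting is not given in the sources used here, so reads of overlapping and antisense pairs cannot be told apart.

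The A549 changes were set beside those of H1299, where 941 genes rose (4.66% of 20194 tested) and 845 fell (4.18%) in the knockout. Of the 199 genes higher in A549 knockout, 103 were tested in H1299, where 12 rose and 12 fell. Of the 231 lower ones, 191 were tested in H1299, where 15 fell and 20 rose. Genes that fell in A549 knockout on chromosome 2 had a median log2 fold change of 0.03 in H1299 over the 108 tested there. The difference of the effects, H1299 minus A549, was tested in a fit over all 12 libraries, and 788 of 22635 genes (3.48%) passed. Among them were 62 of the 103 higher genes and 140 of the 191 lower ones, 81 of these 140 on chromosome 2. These shares describe genes chosen for their A549 change and are not evidence of a difference between the lines as a whole.

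Several genes moved in opposite directions. TGFA rose in A549 and was at 0.101, 0.0854 and 0.45 CPM in H1299 knockout, against 14.3, 17.4 and 11.6 CPM in H1299 wild type, a difference of -7.04 (SE 0.45, adjusted p = 1.01e-05). ADAM23 fell in A549 and was at 3.78, 7.81 and 2.03 CPM in H1299 knockout, against 0.474, 0.444 and 0.371 CPM in H1299 wild type, a difference of 7.67 (adjusted p = 0.000343). LIPG rose in A549, a call lost after centring, and fell in H1299, by 4.90 on the log2 scale there. ANK1, a spectrin-binding ankyrin, had 22, 19.5 and 36.2 CPM in A549 knockout and 8.97, 7.61 and 9.42 CPM in A549 wild type, and in H1299 it had 4.83, 1.32 and 2.15 CPM in knockout and 10.7, 16.6 and 10.1 CPM in wild type. TRIM9, a brain ubiquitin ligase, and PIANP, a neuronal membrane protein, fell in A549 by 1.69 and 1.63 and rose in H1299 by 1.59 and 1.47.

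A few genes changed the same way in both lines. GLRB, a glycine receptor subunit, rose by 2.55 in A549 and 1.26 in H1299, and ADAMTS16, a matrix metalloprotease, by 2.07 and 1.19. In A549 GLRB stood at 2.40 after centring and missed the threshold (adjusted p = 0.0612). It lies on the long arm of chromosome 4, which stood at +0.409 in H1299 knockout, and its H1299 value was not corrected for that. KCNIP3, a calcium-binding channel modulator, fell by 2.03 in A549 and 1.79 in H1299, and PREX1, a Rac activator, by 1.08 and 1.75. GPC1, a cell surface heparan sulfate proteoglycan, had 25.1, 25.9 and 29.9 CPM in A549 knockout and 71.0, 70.3 and 53.2 CPM in A549 wild type, and fell by 1.26 in A549 and 1.25 in H1299. It lies on chromosome 2 and missed the threshold in A549 after centring (-0.81, adjusted p = 0.0618). SFRP1 fell in both lines, by 0.99 in A549 and 5.43 in H1299, and the effects differed (adjusted p = 0.0124).

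**Figure D5:**
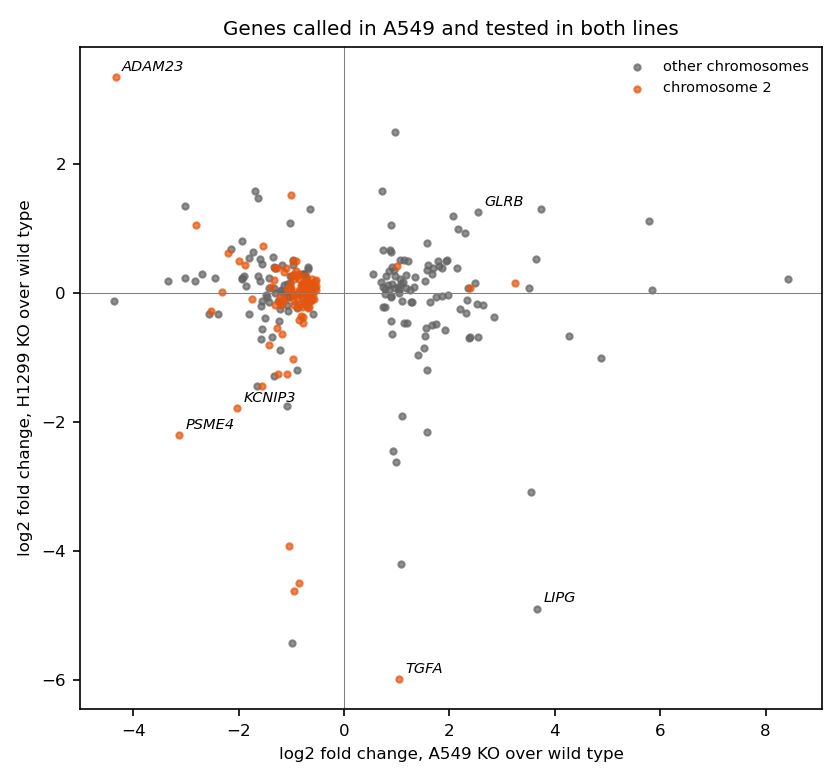
Log2 fold change of PA200 KO over wild type in A549 (horizontal axis) and in H1299 (vertical axis) for the 294 genes called in A549 and tested in both lines, with chromosome 2 genes in orange. Most chromosome 2 genes lie left of 0 in A549 and near 0 in H1299, and TGFA, LIPG and ADAM23 lie in the opposite quadrants.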

How the data were processed

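Poly-A RNA of 12 libraries was sequenced after a stranded mRNA preparation, per the labels' protocols. The authors deposited raw counts per gene symbol. The submitters' processing notes name bcl2fastq 2.20.0.422 and the mouse build GRCm38.p6, although the symbols are human. The aligner, the counter and its strand setting are not given in the sources used here.

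Symbols were placed on GRCh38 with GENCODE 29, where 56159 of 59050 were found once and 230 by another name, so 95.5% have a position. The 37 mitochondrially encoded genes have 0 counts. Groups were taken from the labels. Knockout and wild-type A549 libraries, 3 of each, were compared with edgeR 4.0.16 in R 4.3.3: filterByExpr with a minimum count of 10, TMM scaling, the quasi-likelihood test and Benjamini-Hochberg adjustment at 0.05. Log2 fold changes are knockout over wild type, and SE is the fold change divided by the root of the F statistic. CPM are counts over the TMM-scaled library total. A gene near silent had a group mean under 0.5 CPM. For centring within chromosome arms, each library's median deviation of an arm's expressed genes entered the fit as an offset. Arm medians were tested with limma 3.58.1. Differences between lines came from the interaction in a fit of 12 libraries, over all genes. DESeq2 1.42.0 and limma-voom were alternatives, with other scalings, filters and thresholds and each library left out. Counting intervals and floors cover counting error only. For a single value, an exact permutation test of 3 against 3 libraries cannot give p below 0.1.

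On counts simulated from the A549 gene means, dispersions and library sizes, the edgeR steps recovered 35.4% of 96 genes changed 2-fold and 90.8% of 98 changed 4-fold, with 6 false calls. Genes were simulated independently, without shifts of whole chromosomes or splits among the wild-type libraries. The number of false calls therefore does not carry over to the real libraries.

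The comparison, the lists and the classes were chosen with earlier results of these data known. Named genes are PSME4, the 6 most abundant called each way, 6 lower and all higher called genes on chromosome 2, 10 near-silent genes each way, up to 4 called genes each way in a class, members of groups of 3 or more called neighbours outside chromosome 2, and 6 genes each that changed the same way, oppositely or most differently in the lines. Others were chosen after their values were seen: TESC, AC079601.1, ERLEC1, SPTBN1 and KRT7. Some genes that meet the rule are not reported here. A few mismatched members were taken out of the classes after values were seen.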

Additional observations from a re-analysis of the deposited data

Results flagged for a closer look

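The effect of the knockout differed between the lines for 91 of the 188 named genes, by the interaction test of the fit over 12 libraries. The 10 given here were called in opposite directions in the lines or had the smallest p of the difference among genes called in A549. The difference, H1299 minus A549 on the log2 scale, was -9.66 for PRICKLE1, -8.6 for LIPG, -7.04 for TGFA, -3.76 for ANK1 and -3.39 for CCDC9B. It was 7.67 for ADAM23, 3.26 for TRIM9, 3.08 for PIANP, 2.67 for SUSD5 and 1.47 for METTL21A. PRICKLE1, near silent in wild-type A549, had 0.101, 0.0427 and 0.0322 CPM in H1299 knockout and 0.949, 1.07 and 0.278 CPM in H1299 wild type.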

How the results depend on the processing

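No named gene changed direction in a setting that tested it. For the fits without 1 library this was largely fixed in advance, as the groups did not overlap in any named gene. All 188 were tested except with 1 CPM in 3 libraries required (171), after thinning (180) and without knockout replicate 1, 2 or 3 (187 each). Values below are given in the order all calls, higher calls, lower calls, lower calls on chromosome 2, called genes near silent in wild type, and called genes near silent in knockout; with all settings as described they were 430, 199, 231, 118, 52 and 23. Without a filter beyond a count above 0 they were 1275, 672, 603, 253, 184 and 84. DESeq2 gave 1539, 699, 840, 371, 113 and 50, and the fit of all 12 libraries 1772, 784, 988, 452, 138 and 85. At an adjusted p of 0.01 they were 8, 5, 3, 1, 3 and 0, with 4 classes holding a call, and 140 genes differed between the lines. Centring within arms gave 234, 146, 88, 6, 39 and 6. Splitting the short arm of chromosome 2 at PSME4 as well gave 235, 146, 89, 6, 39 and 6, a split chosen after seeing the data. The median of chromosome 2, -0.46, was 0.0 after centring and 0.01 after the split, as the centring itself sets it near 0. Counts without chromosome 2 were 296 in all, 113 lower and 15 near silent in knockout, and without chromosomes 2, 8 and 15 they were 266, 99 and 14. At 2-fold or more, 132 fell, 43 of them on chromosome 2. Without scaling, lower calls on chromosome 2 were 76 and those near silent in knockout 15. With 1 CPM in 3 libraries required, 34 and 9 near-silent genes were called in wild type and knockout. Thinning to the lowest total left 12 near silent in knockout, and limma-voom 76 lower calls on chromosome 2. With 1 library left out, calls ranged over 10 to 1016, higher calls over 6 to 517, lower calls over 4 to 499, lower calls on chromosome 2 over 1 to 152, genes near silent in wild type over 2 to 78 and in knockout over 0 to 37, the classes with a call over 6 to 39 and the median of chromosome 2 over -0.5 to -0.4. The causes of these shifts were not tested. No paired analysis was possible because the labels give the groups no shared replicate numbers.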
